A study of Mus musculus with 232 samples.

Results

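Annexins and their S100 partners were examined in single mouse embryonic stem cells (mESCs). The set held 10 genes out of 42493 in the deposited tables, 8 annexins (Anxa1, Anxa2, Anxa3, Anxa4, Anxa5, Anxa6, Anxa7 and Anxa11) and 2 S100 genes (S100a6 and S100a10). They were listed by name and were selected on the level of Anxa2, which is high in Dgcr8-/- cells, so the levels of mock Dgcr8-/- cells beside WT cells are given as a description. A total of 11227 genes had a mean count of at least 5 over all cells, and 9 of the 10 members were among them. Anxa11 was not, with a mean count of 4.36.

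Annexins are cytosolic proteins that bind acidic phospholipids of membranes when calcium is raised, and they take part in membrane traffic, membrane repair and the anchoring of actin. S100 proteins are small calcium-binding proteins that dock onto the amino-terminal tail of an annexin. The best known pair is Anxa2 with S100a10, a tetramer at the inner face of the plasma membrane. S100a10 is unusual among S100 proteins in that its binding to the annexin needs no calcium.

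Dgcr8-/- mESCs lack a subunit of the nuclear complex that cuts primary miRNA transcripts, so that a transfected mimic acts in cells with few miRNAs of their own. The 4 conditions were WT cells (line V6.5), Dgcr8-/- cells that were mock-transfected, Dgcr8-/- cells transfected with miR-294, and Dgcr8-/- cells transfected with a let-7 mimic, all grown with serum, LIF and both 2i inhibitors (PD0325901 and CHIR99021). Cells were captured on the Fluidigm C1, 24 h after transfection, and 178 cells are described here, 16 WT, 60 mock, 57 miR-294-transfected and 45 let-7-transfected. Of the miR-294-transfected cells, 3 have titles that begin with MIR_294 and the others with miRNA294, under 1 genotype label, and leaving those 3 out changed none of the 6 counts of members past the 2-fold line. The labels do not say whether the WT cells had been mock-transfected. For the let-7 mimic, titles name let-7i, the series design let-7b and the study let-7c, which share a seed.

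Each condition was captured on a C1 circuit of its own. A condition is therefore 1 sample, the cells of a circuit are not replicates of it, and circuit and condition cannot be told apart. No test was made between conditions, and values are given with their spread over cells. Cells had between 513521 and 3979274 counts (median 1519780.5), and a median of 7734 to 8038 detected genes in the 4 conditions. Dgcr8, the deleted gene, had a mean normalised count of 120.1 in WT, 52.3 in mock, 68.7 in miR-294-transfected and 41.8 in let-7-transfected cells. It was thus lower in all 3 knockout conditions but still counted, and the gene total does not separate the deleted part from the rest. All 8 ESC markers examined, among them Pou5f1, Nanog and Zfp42, had a mean above 10 in every condition, but their sum per cell had a median of 2661 after let-7 and of 4535 to 6297 in the other conditions. Of 7 fibroblast markers, 1 to 3 had a count in a condition, Col1a2, Col3a1, Lum and Postn had none in any cell, and only Dcn after let-7 had a mean above 10. Of 7 endoderm markers, 0 had a count in WT, 2 in mock, 4 after miR-294 and 3 after let-7, with Gata6 and Sox17 at 0 throughout and only Gata4 after let-7 at a mean above 10 (11.006, against 2.79 in mock). Of 5 trophoblast markers, Eomes had a mean above 10 in every condition (84.6 in WT, 21.9 in mock, 13.6 after miR-294 and 34.2 after let-7) and Elf5 in WT only, and of 5 germ layer markers, Mixl1 did in WT, mock and let-7-transfected cells. The part of other cell types in the results was not tested.

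The sequences of the miRNAs bear on which of these transcripts carry a seed match, and are shown with the seed (bases 2 to 8) in capitals, from RefSeq on GRCm38.p6. miR-294 lies at chr7:3220691-3220712 on the plus strand, and the let-7 forms are given because the sources name 3 of them.
miR-294-3p: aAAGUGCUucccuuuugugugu
let-7b-5p: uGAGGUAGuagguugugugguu
let-7c-5p: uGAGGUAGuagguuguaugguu
let-7i-5p: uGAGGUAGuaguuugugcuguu
The 3 let-7 forms have 1 seed. The letters AGCACTT, which pair with the miR-294 seed, and CTACCTC, which pair with the let-7 seed, were looked for on the sense strand of the longest annotated 3′ UTR of each gene. Neither was found in any of the 10 members, whose 3′ UTRs had a median length of 387.5 bases. Among all 21010 protein-coding genes with a 3′ UTR, 14.7% held AGCACTT and 9.02% held CTACCTC, with a median length of 960 bases. A match is a description of the letters in this stretch, and no match says nothing of other kinds of site. None of the members was on the list of earlier array targets of either miRNA that the study used. The study's wider list of predicted targets, which also draws on TargetScan and miRanda, was not searched.

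The levels below are normalised counts, that is the counts of a cell divided by a size factor for its depth. A level of 10 was taken as a clear count, since single counts occurred in many cells. Without molecular tags, intervals of summed counts cover counting error only, and intervals of shares of cells cover only the number of cells drawn from 1 circuit, not a difference between circuits.

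Anxa2 (chr9:69453620-69491795, plus strand) was the most abundant member in the Dgcr8-/- conditions. In mock cells its level ranged from 0 to 5624 with a median of 1481 and a mean of 1739. In WT cells it ranged from 0 to 242 with a median of 20.8 and a mean of 48.8. Of the 60 mock cells, 55 lay above the highest WT cell, and 59 reached a level of 10. The ratio of the means was 34.9 (log2 5.13), which is the difference that the choice of the genes rests on.

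After miR-294, Anxa2 ranged from 0 to 4097 with a median of 732 and a mean of 922, 1.89-fold below the mock mean. By the ratio of means this was within the 2-fold line, and only 12 of 57 cells lay above the mock median. The call depended on the measure. Over the alternatives the log2 ratio lay between -1.11, with the mean of log2 values and past the line, and -0.77. After let-7 Anxa2 ranged from 2.37 to 7725 with a median of 2446 and a mean of 2620, 1.51-fold above the mock mean. The order of the means was WT, miR-294, mock and let-7. The interquartile ranges over cells overlapped between miR-294 and mock and between mock and let-7, and were separate only between WT and miR-294.

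S100a10 (chr3:93555080-93564643, plus strand), the partner of Anxa2, did not share this pattern. It ranged from 0 to 234 in WT cells with a median of 63.5, and from 0 to 260 in mock cells with a median of 56.9. The means were 78.4 and 78.7, a log2 ratio of 0.00499 that lay between -0.33 and 0.18 in the alternatives tried. After miR-294 the mean was 86.1 (lowest 0, median 71.2, highest 338), and after let-7 it was 186 (lowest 0, median 178, highest 741). The let-7 mean was thus 2.35-fold the mock mean, and 11 of 45 let-7-transfected cells exceeded the highest mock cell.

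Because the genes differ in length, the pair was compared as FPKM, which the authors normalised for length and depth. The mean FPKM of Anxa2 divided by that of S100a10 was 0.270 in WT cells, 9.30 in mock, 4.41 after miR-294 and 5.77 after let-7. As S100a10 was level between WT and mock cells, the step from WT to mock restates the Anxa2 difference that chose the set. The numbers of single cells describe the same values and are no further support. Anxa2 had the higher FPKM in 4 of 16 WT cells, 59 of 60 mock cells, 51 of 57 miR-294-transfected cells and 43 of 45 let-7-transfected cells. The cells that reached a level of 10 for both genes were 7 of 16, 51 of 60, 49 of 57 and 40 of 45 in the same order.

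**Figure D1:**
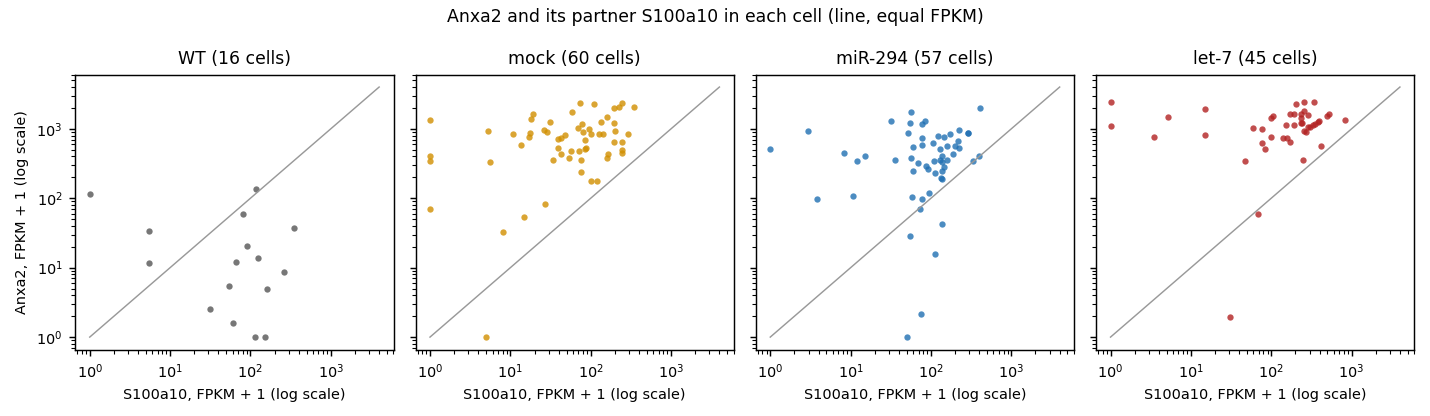
FPKM + 1 of Anxa2 (y axis) against FPKM + 1 of S100a10 (x axis), both on log scales, with 1 point per cell and 1 panel per condition; the line marks equal FPKM. Most WT cells lie below the line (4 of 16 above it), and 59 of 60 mock cells lie above it, while S100a10 itself covers a similar range in both. The shift from WT to mock restates the level of Anxa2, on which the set was chosen.

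Anxa6 (chr11:54979108-55033445, minus strand), an annexin with a duplicated core, was the 1 member that was lower in mock than in WT cells by more than 2-fold. In WT it ranged from 0 to 1211 with a median of 95.4 and a mean of 251, and 12 of 16 cells reached a level of 10. In mock it had no count in 50 of 60 cells, reached 501 in the highest, and had a mean of 30.5. The ratio was 7.98-fold. After miR-294, 30 of 57 cells had a count (52.6%, exact 95% interval 38.97 to 66.02), and in mock 10 of 60 (16.7%, 8.29 to 28.5), which describes these 2 circuits and is no test of the conditions. With every cell thinned to 500000 counts the numbers were 26 of 57 and 8 of 60. The cells at a level of 10 numbered 22 of 57 after miR-294, 13 of 45 after let-7 and 8 of 60 in mock. The median was 0 in mock, 0.887 after miR-294 and 0 after let-7. The mean was 38.3 after miR-294 and 75.3 after let-7, 2.42-fold the mock mean in the latter. Both stayed below the WT mean. These means rested on a few cells, since the highest cell held 27.7% of the summed level after let-7, 30.2% in WT and 27.3% in mock. In WT the highest cell was at 1211 and the next at 1056.

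The make-up of the annexins differed between the WT and Dgcr8-/- cells. The shares are given as a description, since Anxa2, whose level chose the set, enters them. A larger share of Anxa2 also lowers the shares of the others. The levels of Anxa6 itself are given above. As a share of the summed mean FPKM of all annexins, Anxa6 took 43.3% in WT, followed by Anxa7 with 19.5%, Anxa2 with 15.9% and Anxa4 with 14.4%. In mock cells Anxa2 took 64.98% and Anxa6 0.647%. Anxa2 took 67.6% after miR-294 and 66.6% after let-7. The sum itself was 176 FPKM in WT, 1296 in mock, 759 after miR-294 and 1794 after let-7. The 3 Dgcr8-/- conditions thus had nearly the same share of Anxa2 at sums that differed more than 2-fold. Anxa6 had a higher FPKM than Anxa2 in 10 of 16 WT cells and in 0 of the Dgcr8-/- cells.

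**Figure D2:**
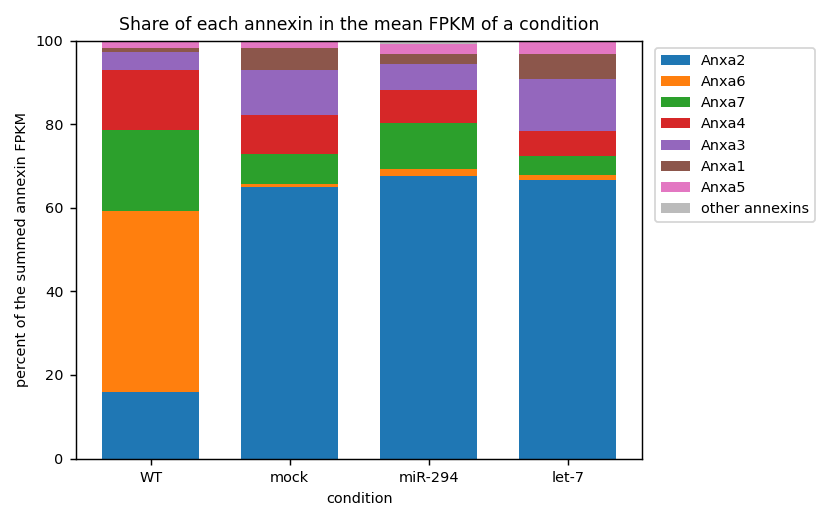
Share of each annexin (percent, stacked bars) in the mean FPKM summed over all annexins, for the 4 conditions. Anxa6 holds the largest share in WT (43.3%) and Anxa2 in the other conditions (64.98% to 67.6%). The set was chosen on the level of Anxa2 in Dgcr8-/- cells, and its share lowers those of the others.

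Anxa1 (chr19:20373428-20390944, minus strand), a ligand of formyl peptide receptors known from the control of inflammation, was almost absent from WT cells. It had a count in 1 of 16, at a level of 27.4. In mock cells 39 of 60 had a count, with a median of 12.9, a highest level of 8822 and a mean of 221. After miR-294, 27 of 57 cells had a count (median 0, highest 484, mean 39.4), and after let-7, 32 of 45 did (median 87.7, highest 1947, mean 276). The interquartile ranges overlapped between all neighbours in the order of means.

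The Anxa1 mean of mock cells was set by 1 cell, which held 66.4% of the summed level, and without it the mean was 75.7. That cell was also the highest of the 60 for Anxa3 (2578), Anxa4 (3090) and S100a6 (1043), and it ranked 11th for Anxa2. Its total count was 1594550 and its ESC markers summed to 2991, against a median of 5369 in mock cells. Of the marker lists for other cell types, its endoderm markers summed to 164 (mock median 0, highest mock cell 168) and its fibroblast markers to 0. The part of this cell in the ratios is shown by leaving it out. The mock over WT log2 ratio of Anxa1 went from 6.36 to 4.83, the miR-294 over mock ratio from -2.46 to -0.93, and the let-7 over mock ratio from 0.31 to 1.86. By the ratio of means, Anxa1 was past the 2-fold line after miR-294 with this cell and not without it, and after let-7 without it and not with it. Other measures placed it differently, since leaving out the highest cell of every condition gave -1.24 after miR-294, and medians over all cells gave 2.67 after let-7.

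Anxa3 (chr5:96793339-96845966, plus strand) had the same order of means as Anxa1 and Anxa2. WT cells ranged from 0 to 87.1 with a median of 0 and a mean of 13.996, and mock cells from 0 to 2578 with a median of 242 and a mean of 333. Of the mock cells, 50 of 60 exceeded the highest WT cell. After miR-294 the median was 37.8 and the highest 467, and the mean of 93.9 was 3.52-fold below mock. Only 8 of 57 miR-294-transfected cells lay above the mock median. After let-7 the median was 545 and the highest 1779, and the mean of 542 was 1.62-fold above mock. A level of 10 was reached by 3 of 16 WT, 56 of 60 mock, 35 of 57 miR-294-transfected and 44 of 45 let-7-transfected cells.

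Anxa4 (chr6:86736840-86793584, minus strand), abundant in secretory epithelia, had a count in nearly every cell. Its level ran from 0 to 197 in WT (median 25.6, mean 54.6) and from 3.09 to 3090 in mock (median 252, mean 346), a 6.25-fold ratio. After miR-294 it ran from 3.33 to 852 (median 67.4, mean 140), 2.46-fold below mock. After let-7 it ran from 6.09 to 963 (median 301, mean 325), close to the mock values. Of the miR-294-transfected cells, 9 of 57 lay above the mock median. Without the mock cell described above, Anxa3 and Anxa4 stayed past 2-fold after miR-294, at log2 ratios of -1.64 and -1.09.

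Anxa5 (chr3:36448923-36475894, minus strand), which binds the phosphatidylserine that dying cells expose, was found in a part of the cells only. It had a count in 5 of 16 WT cells (highest 75.1, mean 7.25), 28 of 60 mock cells (highest 490, mean 49.998), 29 of 57 cells after miR-294 (highest 307, mean 36.7) and 33 of 45 after let-7 (highest 759, mean 131). The medians were 0, 0, 0.349 and 41.7. The let-7 mean was 2.59-fold the mock mean, and 29 of 45 let-7-transfected cells reached a level of 10 against 25 of 60 mock cells.

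Anxa7 (chr14:20455260-20480133, minus strand), also called synexin, had the smallest mock over WT ratio of the annexins that were higher in mock cells by at least 2-fold. It ranged from 0 to 337 in WT (median 115, mean 126) and from 3.42 to 1348 in mock (median 312, mean 404), a 3.19-fold ratio. After miR-294 it ranged from 0 to 1262 (median 238, mean 307), and after let-7 from 0 to 1327 (median 194, mean 370). Both were within 2-fold of mock.

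Anxa11 (chr14:25842156-25886804, plus strand), which binds S100a6 and the calcium sensor Pdcd6, was near the limit of detection. No count was found in the 16 WT cells, in a total of 24459381 counts. The 60 mock cells together had 207. With a floor of 3 counts set for all WT cells, mock cells were 16.1-fold higher per total count. The exact 95% lower limit of the ratio of the sums was 13.001-fold, for counting error only. The ratio of means, with the pseudocount of 1, was 4.06, and both medians were 0. Anxa11 had a count in 21 of 60 mock, 19 of 57 miR-294-transfected and 16 of 45 let-7-transfected cells, and the highest cell of all reached 95.3. Of the stretches of 31 bases in its transcripts, 15.1% also occur in transcripts of other genes (Gm2260 and Gm2274), so its counts depend on how RSEM divided shared reads. For the other members this share was between 0 and 3.198%.

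S100a6 (chr3:90612882-90624181, plus strand), or calcyclin, is a ligand of several annexins and of the ubiquitin ligase adaptor Cacybp. WT cells had a single count in 1 of 16 cells. In mock cells 24 of 60 had a count, with a median of 0, a highest level of 1043 and a mean of 40.4. The ratio of means, with the pseudocount of 1, was 39.3, while both medians were 0. Per total count, mock cells were 485-fold higher than WT, with an exact 95% interval of 86.9 to 19150 that reflects the single WT count. The mean of mock cells was 23.4 without their highest cell, the same that was highest in Anxa1. After let-7, S100a6 had the largest ratio of the members in that comparison. Of the 45 cells, 37 had a count and 34 reached a level of 10, against 18 of 60 in mock. The median was 106, the highest 1068 and the mean 220, 5.33-fold the mock mean. The interquartile ranges of let-7-transfected and mock cells did not overlap. Without the mock cell described above the log2 ratio was 3.18, against 2.41 with it.

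After miR-294 the direction for S100a6 depended on the measure. The mean was 14.1, 2.75-fold below mock, yet 30 of 57 cells had a count against 24 of 60, and 19 of 57 reached a level of 10 against 18 of 60. The log2 ratio of the means went from -1.46 to -0.70 without the single high mock cell.

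**Figure D3:**
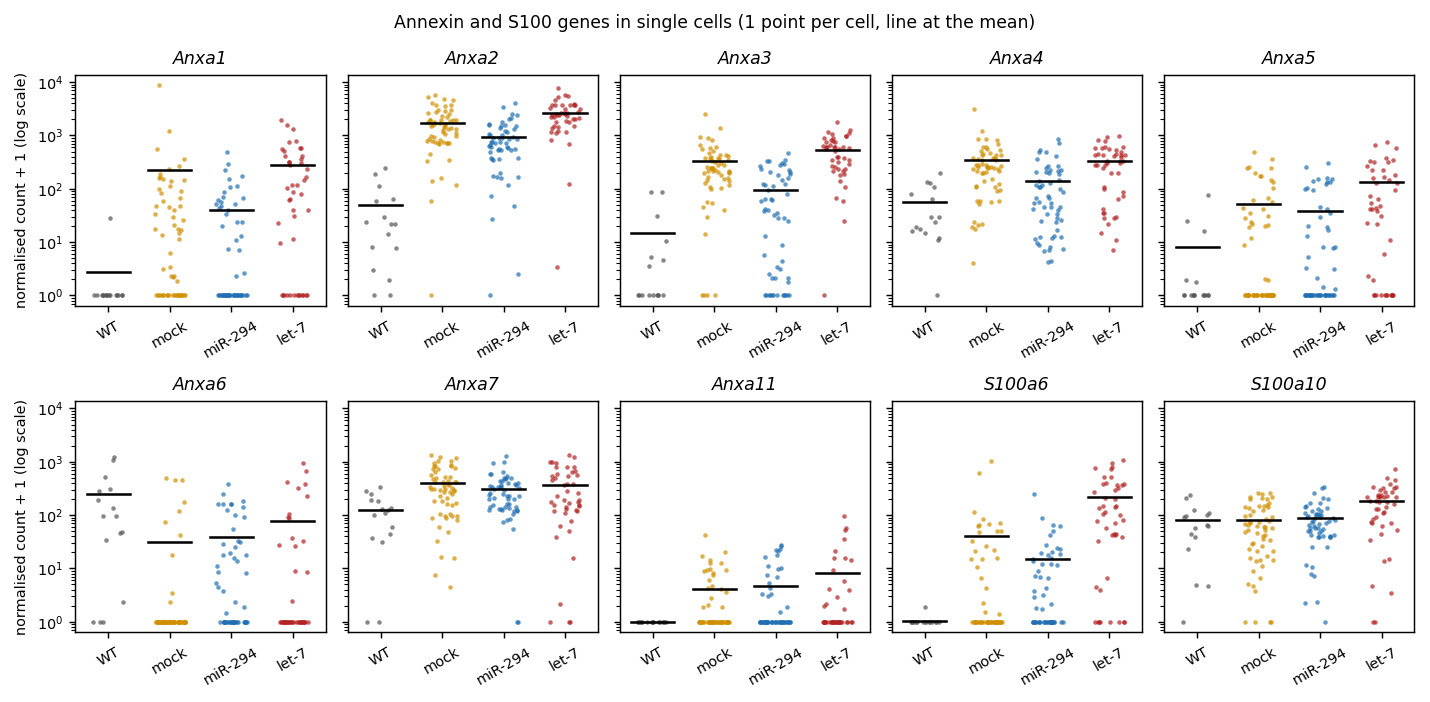
Normalised count + 1 (y axis, log scale) of the 10 members in every cell, with 1 point per cell, a line at the mean and 1 colour per condition (16 WT, 60 mock, 57 miR-294 and 45 let-7 cells). Anxa6 alone is highest in WT, S100a10 is level between WT and mock (means 78.4 and 78.7), and the single mock point at 8822 for Anxa1 stands far above the next.

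Read over the set, the median log2 ratio of all 11227 genes was itself not 0, but 0.35 for mock over WT, -0.26 for miR-294 over mock and 0.17 for let-7 over mock. With TMM factors these medians were 0.19, -0.12 and 0.12. For mock over WT, 7 of the 9 members that passed the filter were higher by at least 2-fold (Anxa1, Anxa2, Anxa3, Anxa4, Anxa5, Anxa7 and S100a6), where 30.3% of all genes were. Since Anxa2 chose the set on this contrast, nothing is read from that count. One member, Anxa6, was lower by as much, where 8.77% of all genes were, and S100a10 was within the line. The median log2 of the members was 2.64. Relative to the median of all genes, the log2 ratio was 4.78 for Anxa2, -3.35 for Anxa6 and -0.34 for S100a10.

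For miR-294 over mock, 4 of 9 members were lower by at least 2-fold (Anxa1, Anxa3, Anxa4 and S100a6), where 18.8% of all genes were. Without the mock cell that was highest in Anxa1, these were 2 of 9 (Anxa3 and Anxa4), where 17.8% of all genes were. None was higher by 2-fold, where 4.94% of all genes were. The median log2 was -0.92 over the members. Relative to the median of all genes, the log2 ratios were -1.55 for Anxa3, -1.03 for Anxa4, -0.65 for Anxa2, 0.39 for S100a10 and 0.58 for Anxa6.

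For let-7 over mock, 4 of 9 members were higher by at least 2-fold (Anxa5, Anxa6, S100a6 and S100a10), where 17.6% of all genes were, and none was lower, where 8.48% were. Without the same mock cell Anxa1 joined them, making 5 of 9, where 18.7% of all genes were higher. Anxa6 had a median level of 0 both in mock and after let-7. The median log2 of the members was 0.70. Relative to the median of all genes the ratios were 2.24 for S100a6, 1.198 for Anxa5, 1.10 for Anxa6 and 1.06 for S100a10. Both transfections were set against the same 60 mock cells, so the comparisons are not independent of each other. Anxa2 chose the set as a gene high in Dgcr8-/- cells, and mock cells are the denominator of both. Neither count after transfection is therefore free of that choice.

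**Figure D4:**
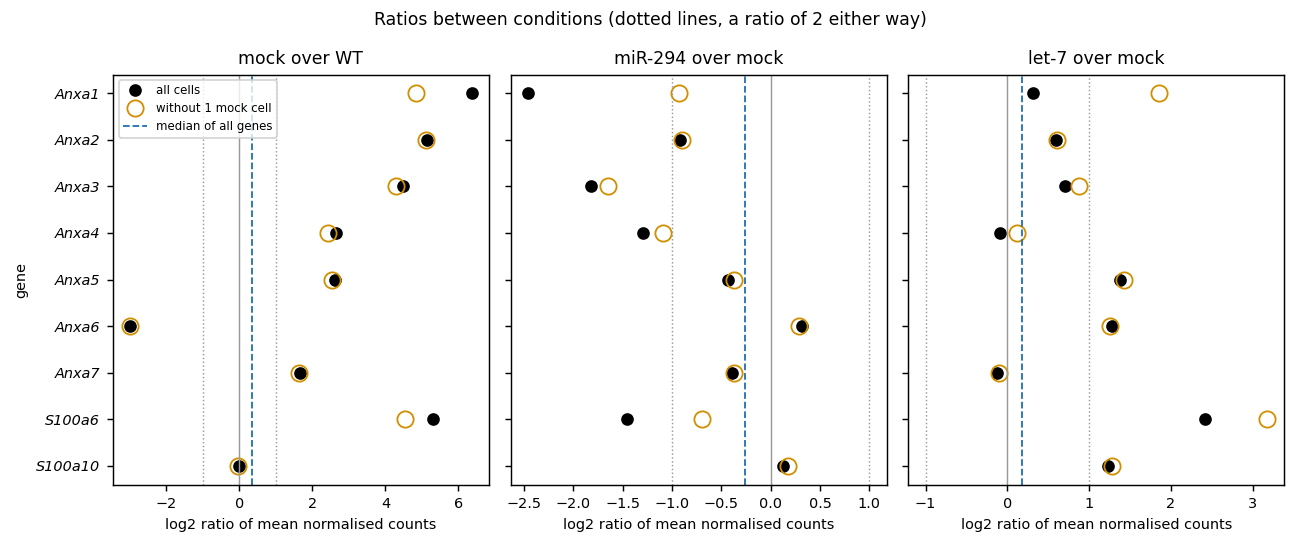
Log2 ratio of mean normalised counts (x axis) for the 9 members that passed the filter, in 3 comparisons; filled points use all cells, open circles leave out the mock cell highest in Anxa1, dotted lines mark a ratio of 2 and the dashed line the median of all genes. Anxa1 and S100a6 move most without that cell, from -2.46 to -0.93 and from -1.46 to -0.70 for miR-294 over mock.

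Single cells differed in how many members they held. A level of 10 was reached by a median of 4 members in a WT cell (lowest 3, highest 7), 6 in a mock cell (3 to 9), 6 after miR-294 (3 to 10) and 8 after let-7 (3 to 9). The cell lowest in Anxa2 of each Dgcr8-/- condition had other annexins. The mock cell without a count kept Anxa3 at 404 and Anxa7 at 772, and the miR-294-transfected cell without one had the highest Anxa7 of its condition (1262). The let-7-transfected cell at 2.37 had Anxa3 at 581 and Anxa4 at 422 but Anxa7 at 0. In this cell the ESC markers summed to 462, the lowest of its condition, and the endoderm markers to 461, the highest. The totals of these cells, from 1802046 to 3299075 counts, were above the median of all cells, and the let-7-transfected one is a pair of labelled cells counted as 1.

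The correlations between pairs of members within a condition had low medians. No such median was taken over pairs of all genes. Over their pairs, the median Spearman correlation between cells was 0.052 in WT (36 pairs, 16 cells), 0.13 in mock (45 pairs, 60 cells), 0.013 after miR-294 (45 pairs, 57 cells) and 0.16 after let-7 (45 pairs, 45 cells). All cells of a condition share a circuit, and many values are 0. The closest pair in the Dgcr8-/- conditions was S100a6 with S100a10 after let-7, at a Spearman correlation of 0.71 over 45 cells. Both reached a level of 10 in 32 of these cells. Anxa2 and Anxa1 had a correlation of 0.55, and Anxa2 and Anxa3 0.47, in the same cells. In mock cells the highest was 0.41, for Anxa3 and S100a6, and Anxa2 with S100a10 had 0.36.

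The genes whose levels followed Anxa2 most closely were listed among 11226 genes. Over the 60 mock cells they were Creb3, a membrane-bound transcription factor (Spearman correlation 0.64), Plin2, which coats lipid droplets (0.60), 2200002D01Rik (0.58), Gstp1, a glutathione transferase (0.58), and Aldoa, a glycolytic enzyme (0.58). Over all 178 cells, where differences between conditions enter, they were Sparc, a matrix protein (0.71), Tagln2, an actin-binding protein (0.68), 2200002D01Rik (0.65), Lgals3, a galectin (0.65), and Cd63, a tetraspanin (0.62). Of the members, Anxa3 ranked 9th in that list and S100a6 30th, whereas in mock cells the closest was S100a6 at rank 100. The median correlation of all genes was 0.022 over mock cells and 0.015 over all cells. Anxa2 itself had a correlation of -0.036 with the size factor in mock cells and -0.15 over all cells.

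Of the other annexins, only Anxa9 passed the filter. It was found in 15 of 178 cells, none of them WT, and Anxa10 and Anxa13 had no count at all. Of 14 other S100 genes, 3 passed, and all 3 were higher in mock than in WT by at least 2-fold, where 30.3% of all genes were. S100a11, the partner of Anxa1, was found in nearly every cell, with a mean of 90.4 in WT (lowest 27.6, highest 211), 363 in mock (141 to 765), 213 after miR-294 (46.2 to 535) and 333 after let-7 (0 to 1257). Every mock cell lay above the WT median, and 50 of 60 above the highest WT cell. S100a1 was lower after miR-294 by 2.60-fold, with means of 6.83 and 19.3, and S100a13 was 1.67-fold lower.

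Of 18 genes listed as further partners, 12 passed the filter. For mock over WT, 9 of them were higher by 2-fold and 0 lower, where 30.3% and 8.77% of all genes were. For miR-294 over mock 1 of the 12 was lower, where 18.8% of all genes were. For let-7 over mock 3 were higher and 1 lower, where 17.6% and 8.48% of all genes were. The median log2 was 1.51, -0.67 and 0.67 in the same order, and no partner or other S100 gene crossed the 2-fold line when the mock cell highest in Anxa1 was left out.

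Plaur, the receptor of the protease urokinase, which acts beside the Anxa2 and S100a10 complex at the cell surface, had the largest ratio among them after miR-294. Its mean was 5.23 in WT (highest 22.4), 216 in mock (median 75.1, highest 2579), 43.6 after miR-294 (median 7.76, highest 263) and 193 after let-7 (median 108, highest 774). The miR-294 mean was 4.86-fold below mock. Its 3′ UTR holds 1 match to the let-7 seed and none to that of miR-294. Capn1, another listed partner, also holds 1 match to the let-7 seed. For let-7 over mock, the log2 ratio was 0.74 for Capn1 and -0.16 for Plaur. Capn1 had a count in only 11 of 45 let-7-transfected cells. The part of either match was not tested. The Plaur match is shown in capitals with its flanks (chr7:24475920-24475946, plus strand, GRCm38).
Plaur 3′ UTR site: ccacctgcctCTACCTCctcagtgctt

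Myof, a ferlin of membrane repair, had a count in 1 of 16 WT cells and 52 of 60 mock cells, with means of 2.54 and 130. Capn2, the catalytic subunit of a calpain, was the partner with the largest let-7 ratio. It had a count in 17 of 60 mock cells (mean 27.5, highest 355) and in 40 of 45 let-7-transfected cells (mean 196, highest 604), 6.90-fold higher. Its regulatory subunit Capns1 differed otherwise, with a mean of 187 in WT, 922 in mock, 484 after miR-294 and 780 after let-7.

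Ahnak, a very large scaffold that binds the Anxa2 and S100a10 complex, had means of 172 in WT, 370 in mock, 201 after miR-294 and 772 after let-7. The last was 2.09-fold the mock mean (median 472 against 197). Dlc1, a GTPase-activating protein that S100a10 binds, went the other way after let-7, with a mean of 53.4 against 125 in mock, 2.31-fold lower. It had a count in 35 of 45 let-7-transfected cells and 59 of 60 mock cells. Cacybp, the partner of S100a6, had means between 506 and 626 in the 4 conditions.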

How the data were processed

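Single cells of 4 conditions were sequenced in 232 runs. The authors quantified Gencode M4 genes with RSEM 1.2.19 and deposited for each run an expected count, not normalised, and an FPKM, normalised for length and depth. The authors had removed shallow cells and transfected cells whose known targets were not lower. For a cell, the expected counts of its runs were added up, rounded to whole numbers and divided by median-of-ratios size factors from 864 genes counted in every cell. FPKM was averaged over runs, weighted by their totals. The expression ratio was that of mean normalised counts with a pseudocount of 1, for genes whose mean count reached 5, and a ratio of 2 was the line. No test was run, as a condition is 1 sample. The ratio was tested on simulated negative binomial counts with the same dispersion for all genes and no added outlying cells. That does not cover a gene such as Anxa1 in mock cells, where 1 cell held 66.4% of the summed level.

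The labels list 182 cells. The chi-square per gene between runs of 1 cell had been planned as the measure of identity. It was at most 6.19 in 48 cells, and 4 pairs of cells with neighbouring numbers (3 let-7, 1 miR-294) came under that value, so each was counted as 1 cell. Other pairs of cells began at 35.4. In 2 further cells (1 WT, 1 let-7) the runs differed by 179 and 98.3, as much as different cells do. They were summed as labelled and left out in an alternative. The original plan to use the highest value over all run pairs was dropped for that reason.

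The share of cells at a level of 10 was added after seeing the data. Exact binomial (Clopper-Pearson) and Poisson-based intervals cover 95%. Positions and 3′ UTRs are those of Gencode M21. Genes named were all 10 members, partners past 2-fold (at most 4 per list by size) with at most 2 well-known others, and the 5 genes most like Anxa2. Capn1 was named for its seed match. Python 3.11.15, scipy 1.17.1 and edgeR 4.0.16 (for TMM factors only) were used. The members and lists were chosen with earlier results of these data known.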

Additional observations from a re-analysis of the deposited data

How the results depend on the processing

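In all, 14 alternatives were tried, 2 of them chosen after seeing the data (leaving out the 2 cells with unlike runs, and leaving out the mock cell highest in Anxa1). Of 84 counts of members past the line, 5 moved by over 1.5 times. The members lower after miR-294, 4 of 9, were 2 with counts summed over cells (Anxa1 and Anxa3), 2 without the mock cell highest in Anxa1 (Anxa3 and Anxa4), and 1 at a ratio of 4 (Anxa1). With the mean of log2 values 1 member, Anxa6, was higher after miR-294, against 0. The members higher after let-7, 4 of 9, were 1 at a ratio of 4 (S100a6). A count that did not move can still hold other members. With medians over cells, Anxa1 (log2 2.67) and Anxa3 (1.17) were past the line after let-7. With the mean of log2 values, Anxa2 was lower past the line after miR-294 (-1.11) and S100a6 was not. Of 360 values of single genes, 2 that were past the line with the settings reported changed sign, both for S100a6 in miR-294 over mock, from -1.46 to 0.83 with medians over cells and to 0.059 with the mean of log2 values. Falls to a log2 ratio of 0 are not among these 2. With medians over cells, Anxa5 and S100a6 in mock over WT and Anxa6 in let-7 over mock fell from past the line to 0. Among ratios within the line, 11 values of 3 others changed sign, with ends at -0.33 for S100a10 in mock over WT, 0.25 for Anxa4 in let-7 over mock and 0.43 for Anxa5 in miR-294 over mock. The cause was not tested. Leaving out the 2 cells with unlike runs gave the same 6 counts of members. Low counts limit Anxa11 and, in WT, Anxa1 and S100a6. No paired analysis was possible because the replicate numbers in titles count sequencing runs of 1 cell, and the cell numbers only name cells.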
